A study of Mus musculus with 8 samples.

Results

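The 38 genes described here encode the signalling machinery directly below the B cell receptor, together with the calcineurin, NFAT and MAP kinase genes that carry the signal to the nucleus. They were chosen by name from the deposited gene table, and all 38 were found among its 23997 genes. When antigen clusters the receptor, Src family kinases phosphorylate the tails of CD79A and CD79B, SYK binds there, and SYK and BTK act through the adaptor BLNK on phospholipase C gamma. The lipase makes inositol trisphosphate, which releases calcium and turns on calcineurin and NFAT, and diacylglycerol, which recruits protein kinase C and the Ras exchange factors that feed the MAP kinases. Marginal zone B cells (MZBs), the splenic B cells beside the marginal sinus, are known for strong and fast responses to receptor ligation.

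RNA sequencing was done on MZBs of C57BL/6 mice, in 8 libraries, 4 with the genotype label ACKR3+ and 4 with ACKR3-, from 4 mice in each group by the design; they are named GFP positive and GFP negative in their titles. ACKR3 is an atypical receptor that removes the chemokine CXCL12. Neither the reporter allele behind GFP nor the sex and age of the mice is given in the labels. Each gene has 1 estimated fragment count in each of 2 pooled conditions, q1 and q2, and no label ties either to a genotype, so values are given by column name. Ackr3 itself was counted at 1030 fragments in q1 against 149 in q2, and this difference was not used to assign the columns. The columns held 16877559 and 16653774 fragments, and the depth of single libraries is unknown. With 1 value per condition there is no replicate check and no p-value. The value after ± is the SD implied by the variance the authors deposited, and log2 ratios are q2 over q1 with 1 fragment added. Since these are bulk samples, fewer cells of a type and less RNA per cell cannot be told apart. The defining B cell markers were abundant, with Ms4a1, encoding CD20, at 37926 fragments in q1 and 35325 in q2, and Cr2, encoding CD21, which is high on MZBs, at 81167 and 70851.

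The signalling genes as a group were nearly level between the conditions, and Rasgrp3 had the largest difference among them. All 38 exceeded 100 fragments in the higher column and 36 exceeded 1000; the lowest was Vav3. Together they held 1.79% of all fragments in q1 and 1.801% in q2. Their median log2 ratio was 0.00066, beside 0.00053 over the 9582 genes with at least 100 fragments. Their median absolute log2 ratio was 0.095, beside 0.10 over these genes and 0.092 over those with at least 1000 fragments. Of the 38 genes, 19 were higher in q2 and 19 in q1, beside 50.2% of all genes higher in q2; with equal column totals the first count was 21. Differences under 1.1-fold were seen for 23 genes, 60.5% of them, beside 61.9% of all genes and 67.8% of those with at least 1000 fragments.

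Only Rasgrp3 was at least 1.5-fold higher in q2, a size that 3.39% of all genes reached, and none of the 38 was at least 1.5-fold higher in q1, a size that 1.58% reached. Among the 3978 genes with at least 1000 fragments these shares were 1.26% and 1.03%. At 1.2-fold the counts were 2 toward q2 (Rasgrp3 and Ppp3ca), beside 8.99% of all genes, and 2 toward q1 (Blk and Ptpn22), beside 6.94%. No member reached 2-fold, beside 1.84% of all genes toward q2 and 0.438% toward q1. More than 2 deposited SD separated Rasgrp3 toward q2, beside 4.15% of all genes, and Ptpn22 toward q1, beside 2.11%. With so few genes past any of these sizes, the counts lie near the background and single out no direction for the group. The plot of fragments in q1 against q2 shows the members along the line of equality.

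**Figure D1:**
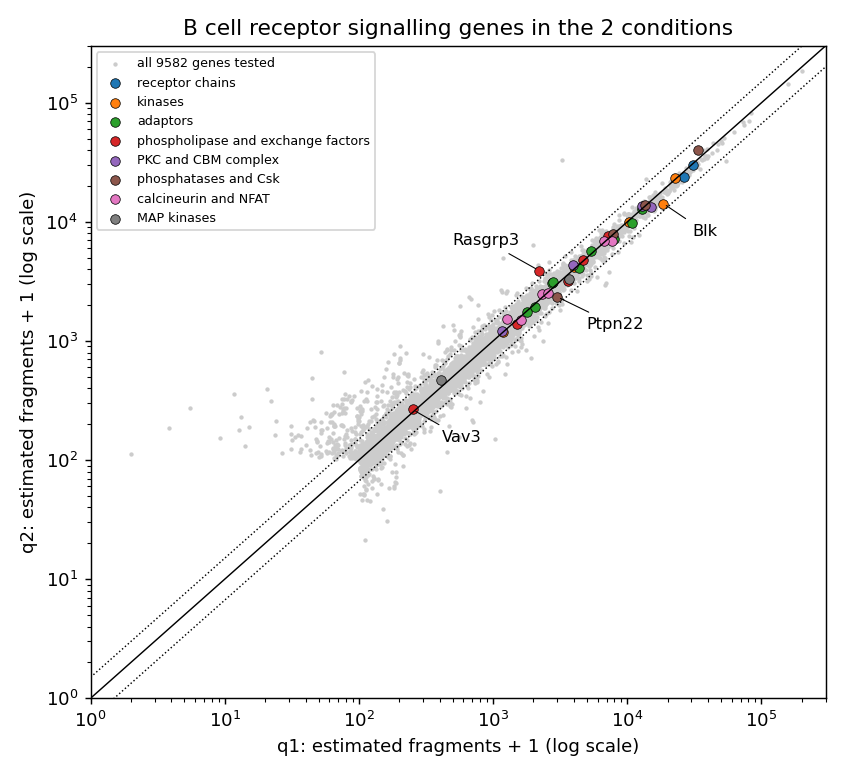
Estimated fragments plus 1 in q1 (x, log scale) and q2 (y, log scale) for the 9582 genes tested (grey) and the 38 signalling genes (colours by role); the solid line marks equality and the dotted lines 1.5-fold. The points of 37 signalling genes lie between the dotted lines and Rasgrp3 lies above them.

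Rasgrp3 encodes a diacylglycerol-activated exchange factor that loads Ras and Rap GTPases downstream of phospholipase C gamma in B cells. It had 2197 ± 194 fragments in q1 and 3903 ± 338 in q2. The q2 level was thus 1.78-fold higher, a log2 ratio of 0.83 ± 0.18, and the deposited SDs of the columns do not overlap. Its absolute ratio was larger than that of 96.98% of all genes tested and of 99.04% of genes with at least 1000 fragments. The gene lies on chromosome 17 from 75435896 to 75529054, plus strand (GRCm38, GENCODE M21). None of the other RasGRP genes showed a difference of this size. Rasgrp1, the family member best known from T cells, had 4887 and 4718 fragments, a log2 ratio of -0.05. Rasgrp2, which acts mainly on Rap, stood at 0.13, and the scarce Rasgrp4 at 0.17. Per kb of the longest transcript, Rasgrp1 led the family in q1 with 935 ± 80.4 fragments, ahead of Rasgrp3 with 465 ± 41.2 and Rasgrp2 with 349 ± 30.2. In q2 the order was the same, but Rasgrp1 (902 ± 77.7) and Rasgrp3 (827 ± 71.6) lay within their SDs of each other. The Rasgrp3 share of the family level per kb was 25.9% ± 2.1 in q1 and 38.2% ± 2.5 in q2. SOS1, the other kind of Ras exchange factor, is brought to the membrane by GRB2. Sos1 had 1516 and 1393 fragments, a log2 ratio of -0.12 ± 0.19.

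RefSeq places transcription starts of Rasgrp3 at 2 sites, and the gene-level counts do not separate them. The bases from 250 to 61 before each start are shown for this gene, as the member with the largest difference, and for Ptpn22, the member furthest toward q1 in SD units. Capitals mark GGAAAA or its reverse complement TTTTCC, a string that contains the core NFAT proteins recognise. It was searched on both strands because NFAT genes are members here, and shorter matches to the core are not marked.
Rasgrp3 start 1, chr17:75435655-75435844, plus strand, GRCm38.p6: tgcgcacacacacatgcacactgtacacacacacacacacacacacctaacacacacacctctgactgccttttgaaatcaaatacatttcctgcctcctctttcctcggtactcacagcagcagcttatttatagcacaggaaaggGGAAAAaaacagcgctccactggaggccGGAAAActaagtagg
Rasgrp3 start 2, chr17:75465288-75465477, plus strand, GRCm38.p6: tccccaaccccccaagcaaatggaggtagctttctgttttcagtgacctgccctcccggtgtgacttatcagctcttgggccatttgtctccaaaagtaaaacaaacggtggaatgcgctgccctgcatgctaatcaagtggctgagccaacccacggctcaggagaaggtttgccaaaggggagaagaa
Ptpn22 start 1, chr3:103859545-103859734, plus strand, GRCm38.p6: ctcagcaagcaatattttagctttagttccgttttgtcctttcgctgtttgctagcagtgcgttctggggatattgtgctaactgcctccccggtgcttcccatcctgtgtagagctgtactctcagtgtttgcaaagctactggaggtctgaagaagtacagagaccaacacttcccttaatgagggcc
Ptpn22 start 2, chr3:103860027-103860216, plus strand, GRCm38.p6: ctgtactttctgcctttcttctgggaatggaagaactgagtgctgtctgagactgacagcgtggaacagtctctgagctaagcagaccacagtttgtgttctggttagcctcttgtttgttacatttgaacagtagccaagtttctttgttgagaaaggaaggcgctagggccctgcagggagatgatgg
The first Rasgrp3 window holds this string at 2 places, and the other 3 windows shown do not contain it. Of all 32851 RefSeq windows of the same 190 bases, 16.4% hold it, as do 6 of 41 windows of the members. In all, 29 of the 38 members have a window in the RefSeq table. A match describes letters and is not a binding site.

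The receptor chains Cd79a and Cd79b, which carry the tyrosine motifs that start the signal, were among the most abundant of the 38 genes. Cd79a (chromosome 7, 24897381 to 24902197) had 30681 ± 3266 fragments in q1 and 30249 ± 3212 in q2. Cd79b (chromosome 11, 106311341 to 106314762) had 26601 ± 2743 and 23973 ± 2411. The columns lay within 1 SD of each other for both chains, at log2 ratios of -0.02 ± 0.22 and -0.15 ± 0.21; adjusted for GC content, mean expression and transcript length ("corrected" from here on), Cd79a stood at 0.13 and Cd79b at -0.024. Per kb, Cd79a was at 21058 fragments in q1 and 20761 in q2, and Cd79b at 18589 and 16753. The SD ranges of the chains overlapped in q1 and narrowly did not in q2.

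Of the 5 tyrosine kinases, Blk alone differed by at least 1.2-fold. Blk, a Src family kinase largely restricted to B cells (chromosome 14, 63372836 to 63417037), had 18554 ± 1787 fragments in q1 and 14245 ± 1313 in q2. It was 1.302-fold higher in q1, a log2 ratio of -0.38 ± 0.19, which is -1.98 in units of its SD. The other kinases differed by less than 1 deposited SD. Syk, the kinase that docks on the phosphorylated receptor tails, had 22698 and 23160 fragments, a log2 ratio of 0.03 ± 0.20 (0.16 corrected). Lyn, the Src family kinase that both starts and restrains the signal, had 10268 and 9951, at -0.05 ± 0.18. Btk, the Tec family kinase that activates phospholipase C gamma, had 4003 and 4173, at 0.06 ± 0.18. Fyn had 1192 and 1179 fragments, at -0.02 ± 0.19, with a sign that turned (to 0.0037) when column totals were made equal.

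Blk was also the highest per kb of the 7 Src family genes compared, in each column. It reached 7977 ± 768 fragments per kb in q1 and 6124 ± 565 in q2. Lyn followed with 2965 ± 266 and 2873 ± 258, and ranges of 1 SD around Blk and Lyn did not overlap in either column. Fyn, with 335 ± 31.3 and 331 ± 31.2 fragments per kb, was close to Fgr, with 293 and 273. Summed over the 7 Src family genes compared, the level per kb was 11828 in q1 and 9930 in q2, of which Blk made up 67.4% ± 2.6 and 61.7% ± 2.7.

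**Figure D2:**
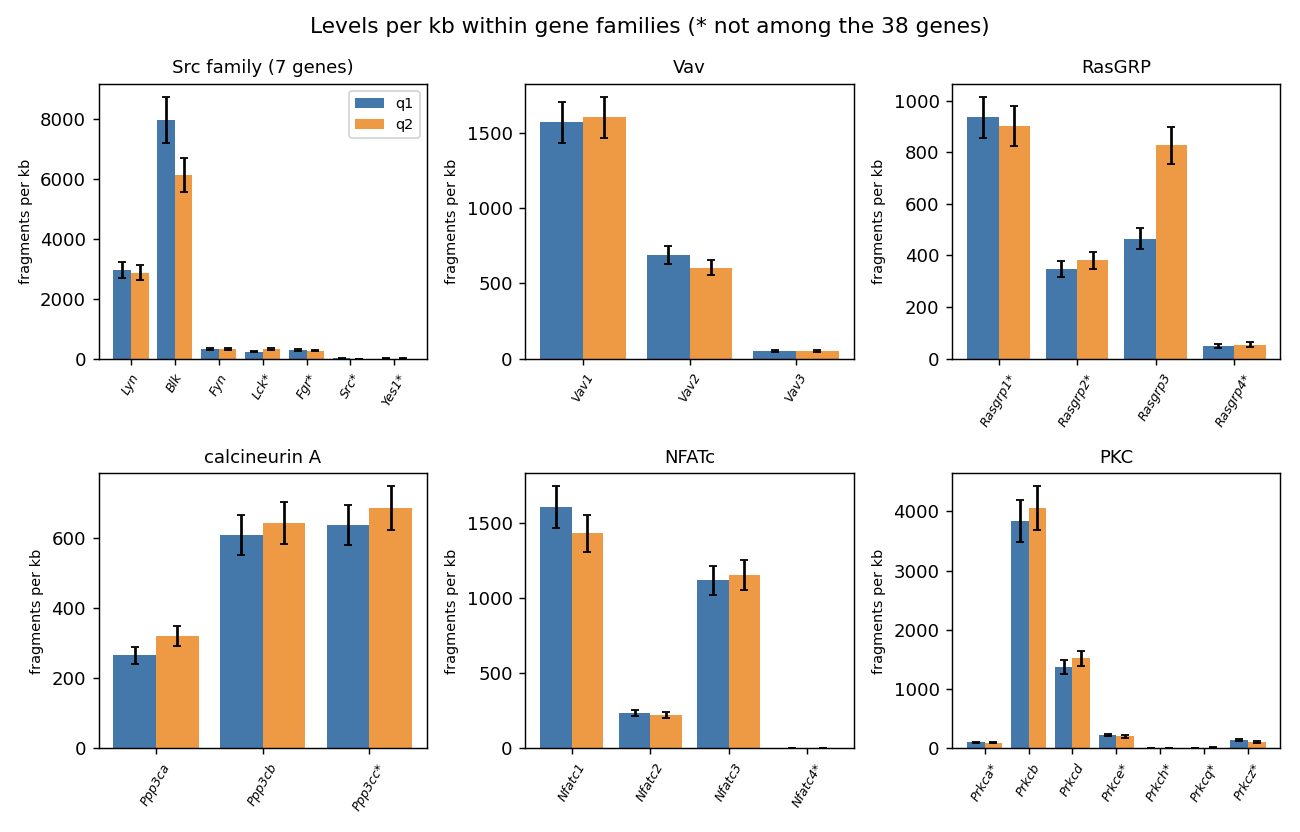
Fragments per kb of the longest transcript (y, linear from 0) in q1 (blue) and q2 (orange) for 6 gene families, with bars for the deposited SD and asterisks on genes outside the 38. Rasgrp3 stands at 465 fragments per kb in q1 and 827 in q2, and Blk is the highest of the 7 Src family genes shown in both.

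The 9 adaptors were level, with log2 ratios from -0.14 to 0.16 and a median of -0.03; 3 were higher in q2 and 6 in q1, and none reached 1.2-fold. Blnk, the scaffold that joins SYK and BTK to phospholipase C gamma, had 10872 fragments in q1 against 9859 in q2, at -0.14 ± 0.18. Bank1, a scaffold that binds LYN, had 12847 and 12737, at -0.01 ± 0.19 (0.0068 with equal totals). Pik3ap1, encoding BCAP, which links the receptor to PI3 kinase, had 2750 and 3065, at 0.16 ± 0.18. Dapp1, encoding BAM32, which binds the lipids PI3 kinase makes, had 2054 and 1944, at -0.08 ± 0.18. These scaffolds therefore differed by less than 1 deposited SD.

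Lat2, a transmembrane adaptor, had 2782 and 3105 fragments, at 0.16 ± 0.18. It shares 36.3% of its exon bases with Rfc2 on the opposite strand, which had 2055 and 2067 fragments, and whether strand was used in counting is not given in the sources used here. Hcls1, an actin-binding substrate of SYK and LYN, had 7951 and 7248 fragments, at -0.13 ± 0.18. Grb2, which carries SOS proteins to the membrane, had 5369 and 5734, at 0.09 ± 0.18, and its relative Grap 4352 and 4081, at -0.09 ± 0.18. The pair thus leaned to opposite sides, each by less than its SD, and their summed level per kb was 4601 in q1 and 4572 in q2. Shc1, which passes tyrosine kinase signals to GRB2, had 1801 and 1758 fragments, at -0.03 ± 0.18 (0.016 corrected).

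Of the lipase and the Vav exchange factors none reached 1.2-fold. Plcg2, the B cell phospholipase C gamma, had 7138 ± 619 fragments in q1 against 7623 ± 664 in q2, at 0.09 ± 0.18. Vav1, the main blood cell Vav, had 4648 and 4747 fragments, at 0.03 ± 0.17. Vav2 had 3604 ± 310 and 3161 ± 273, at -0.19 ± 0.18, which is -1.07 in units of its SD. Vav3 had 251 ± 33.7 and 265 ± 34.8, at 0.08 ± 0.27. The order of the 3 genes per kb was the same in both columns: Vav1 with 1569 and 1602 fragments per kb, Vav2 with 690 and 605, and Vav3 with 50.1 and 52.9. Neighbours in this order were separated by several SDs.

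Protein kinase C beta acts upstream of BCL10 and the protease MALT1, which together activate NF-kB. Prkcb had 12766 fragments in q1 against 13478 in q2, at 0.08 ± 0.19. Prkcd, known for restraining B cell responses to self antigen, had 3917 and 4331, at 0.14 ± 0.18. Per kb, these led the 7 protein kinase C genes measured, at 3836 and 4050 for Prkcb and 1374 and 1519 for Prkcd. Bcl10 had 1167 and 1221 fragments, at 0.07 ± 0.19. Malt1 had 14901 and 13317, at -0.16 ± 0.20, the only one of these 4 genes higher in q1, and it stood at -0.27 when corrected. As deposited, each of the 4 differences was under 1 SD.

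The phosphatases and Csk act on the Src family kinases, where CSK adds the inhibitory phosphate, CD45 removes it, and PTPN22 and SHP-1 remove activating phosphates. Ptpn22 (chromosome 3, 103859795 to 103912247) had 3005 ± 260 fragments in q1 and 2345 ± 205 in q2. It was 1.28-fold higher in q1, a log2 ratio of -0.36 ± 0.18, which is -2.02 in units of its SD. Ptprc, encoding CD45 (chromosome 1, 138062861 to 138175708), was the most abundant of the 38 genes, with 33859 ± 3718 fragments in q1 and 40401 ± 4663 in q2. It was 1.19-fold higher in q2, at 0.25 ± 0.23. Csk, with 7766 and 7977 fragments, and Ptpn6, encoding SHP-1, with 13646 and 13777, stood at 0.04 ± 0.18 and 0.01 ± 0.19. The genes of this group thus ran in different directions, with a median of 0.03.

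Calcineurin is the calcium-activated phosphatase that lets NFAT enter the nucleus. Its catalytic subunit gene Ppp3ca (chromosome 3, 136670124 to 136937727) had 1262 ± 117 fragments in q1 and 1523 ± 138 in q2, 1.21-fold higher in q2 at 0.27 ± 0.19. The catalytic paralog Ppp3cb had 2329 and 2462 fragments, at 0.08 ± 0.19 (-0.0072 corrected). The regulatory subunit gene Ppp3r1 had 2576 and 2517, at -0.03 ± 0.18; 14.3% of its exon bases are shared with Wdr92 on the same strand, which had 435 and 414 fragments. Per kb, Ppp3ca was the lowest of the 3 catalytic genes, with 265 and 320 fragments, whereas Ppp3cb (608 and 643) and Ppp3cc, which is outside the 38 (636 and 685), did not differ beyond their SDs.

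The NFAT genes were level. Nfatc1 had 7700 ± 663 fragments in q1 against 6866 ± 592 in q2, at -0.17 ± 0.18. Nfatc2 had 1619 ± 146 and 1507 ± 137, at -0.10 ± 0.18. Nfatc3 had 6689 ± 579 and 6900 ± 598, at 0.04 ± 0.18. Per kb the order was Nfatc1 with 1605 and 1431 fragments, Nfatc3 with 1118 and 1153, and Nfatc2 with 237 and 221, and Nfatc4 was listed at 0 in both columns. Ranges of 1 SD around these levels did not overlap between neighbours in either column.

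In the MAP kinase branch, Map2k1, encoding MEK1, had 3704 ± 319 fragments in q1 against 3295 ± 284 in q2, at -0.17 ± 0.18. Mapk3, encoding ERK1, had 405 ± 47.3 and 466 ± 52.3, at 0.20 ± 0.23. As deposited, both differences were under 1 SD and opposite in direction. Map2k2, the partner of Map2k1 outside the 38, was close as well, at -0.13. Per kb, Map2k1 with 1521 and 1352 fragments was above Map2k2 with 622 and 570.

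**Figure D3:**
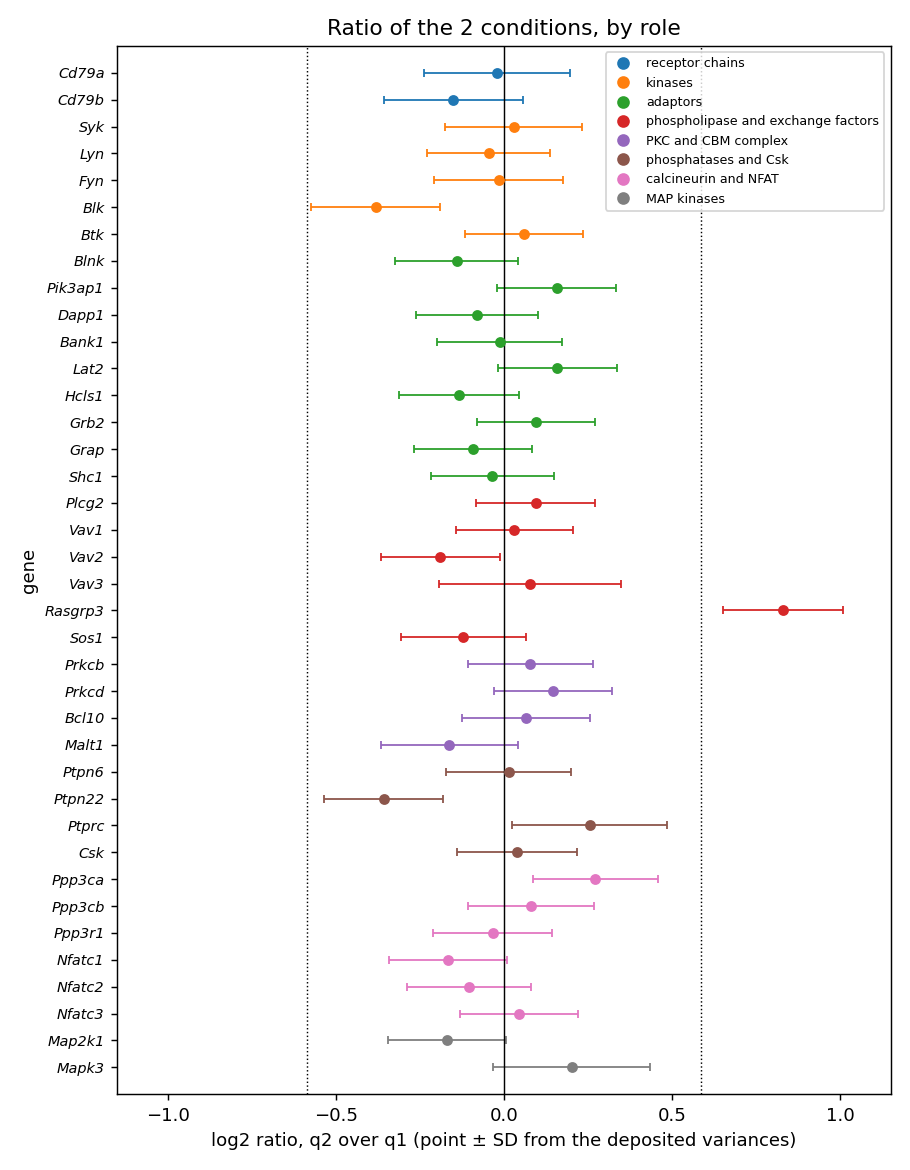
Log2 ratio of q2 over q1 (x) for each of the 38 genes (y), coloured by role, with bars for the SD implied by the deposited variances and dotted lines at 1.5-fold. Rasgrp3 at 0.83 is the only gene beyond a dotted line; Blk at -0.38 and Ptpn22 at -0.36 lie furthest toward q1.

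Differences of at least 1 deposited SD were seen for 6 of the 38 genes, 15.8% of them, beside 19.5% of all genes tested. These were Rasgrp3, Ptprc and Ppp3ca toward q2 and Blk, Ptpn22 and Vav2 toward q1. Corrected, 10 genes were beyond their SD: 5 of these 6, without Vav2, and Malt1, Mapk3, Pik3ap1, Lat2 and Prkcd. The 6 genes belong to 4 different roles, and no role had all its members on 1 side except the receptor chains, whose 2 genes were both higher in q1 as deposited.

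**Figure D4:**
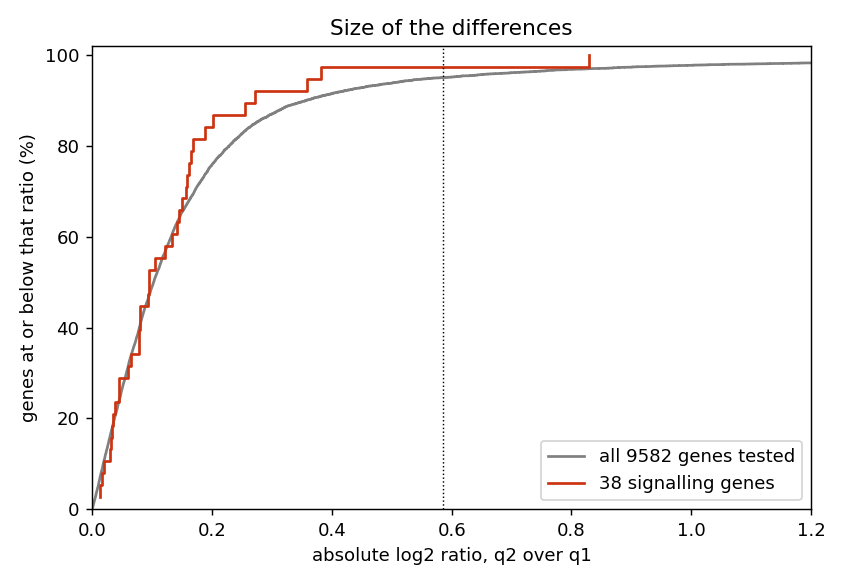
Cumulative share of genes (y, percent) at or below each absolute log2 ratio (x) for the 38 signalling genes (red) and all 9582 genes tested (grey), with 1.5-fold dotted; the x axis ends at 1.2. The curves have medians of 0.095 and 0.10, and the red curve ends at Rasgrp3.

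Other genes of the same pathway, 116 in 8 lists, were also mostly level. Of the 101 with at least 100 fragments, 3 exceeded 1.5-fold toward q2 and 1 toward q1, beside 3.39% and 1.58% of all genes. These counts lie near the background, and the median log2 ratio of the 101 was 0.0088. Pik3cg, the gamma catalytic subunit of PI3 kinase, had 1221 ± 113 fragments in q1 against 1919 ± 171 in q2, a log2 ratio of 0.65 ± 0.19. Nck2, an adaptor to the actin machinery, had 119 and 211 fragments, at 0.82 ± 0.32. Sh2b2, an SH2 adaptor, had 92.3 and 151, at 0.70 ± 0.35, and Dok2, an inhibitory adaptor, 152 and 93.3, at -0.70 ± 0.35. Of these 4 genes Pik3cg alone had over 1000 fragments.

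In the remaining lists no gene with at least 100 fragments reached 1.5-fold, and the largest ratios below are among such genes. Of the co-receptor genes, Cr2 stood at -0.20 and Cd81, a tetraspanin, at -0.28. Among other Src, Tec and Syk family kinases the largest ratio was that of Zap70, the SYK relative of T cells, at -0.52 ± 0.30. It was Plcg1 at -0.35 ± 0.20 for the calcium and NFAT genes, Rasa2, a Ras GTPase activator, at 0.34 ± 0.19 for 20 Ras and MAP kinase genes, and Prkcz at -0.35 ± 0.22 for the list of other protein kinase C and BCL10 pathway genes.

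The marginal zone, follicular, germinal center and plasma cell marker lists moved far more than the signalling genes. The B cell list did not, with a median absolute log2 ratio of 0.12 beside 0.095 for the 38 genes. All lists were chosen with earlier results of these data known, so the contrast is a description and not a test. Over all genes, 3.39% reached 1.5-fold toward q2 and 1.58% toward q1. The marker values stand beside the results for Rasgrp3, Blk and Ptpn22. All 10 marginal zone genes were higher in q1, 5 of them past 1.5-fold, the median log2 ratio was -0.57, and the sums were 154245 fragments in q1 and 127110 in q2. Of 8 follicular B cell genes, 6 were higher in q2, 4 of them past 1.5-fold, with sums of 24275 and 29291. All 10 germinal center genes were past 1.5-fold toward q2, with sums of 1929 and 8120, as were 5 of 7 plasma cell genes, with sums of 18422 and 54497. Single genes weigh heavily in these sums. Mki67 held 1190 and 4991 of the germinal center fragments, and Igj 3234 and 33006 of the plasma cell fragments. Irf4, also in the plasma cell list, ran the other way at 10113 and 8357. The B cell list had a median of -0.10 and none of its 6 genes reached 1.2-fold.

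Genes such as Fyn, Prkcd, Ptpn22 and Lat2 are also expressed by T cells or myeloid cells. The 17 T cell markers summed to 1409 fragments (q1) and 1817 (q2), with Cd3e at 22.8 and 36.4. Of the 5 above 100 fragments, 4 were higher in q2. Single genes weigh heavily in this sum as well. Lck, also among the 7 Src family genes compared, held 524 and 689 fragments. Zap70 held 238 and 166, and Cd28 held 30.3 and 165. The 14 macrophage and monocyte markers in the table summed to 1610 and 1079, and 6 of the 8 above 100 fragments were higher in q1. NK cell markers summed to 340 and 306 fragments, of which Prf1 alone held 265 and 190. The other NK markers, each under 100 fragments, were higher in q2 except Gzmb, which was nearly level. Dendritic cell markers summed to 598 and 757, of which Bst2 held 338 and 341. Erythroid markers summed to 98.6 and 89.5, neutrophil markers to 25.3 and 39.5 and platelet markers to 23.0 and 28.6. No marker of these lists was at 0 in both columns; 2 platelet markers were at 0 in q1 and 1 in q2. The part of these cells and states in the ratios of Rasgrp3, Blk and Ptpn22 was not tested.

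**Figure D5:**
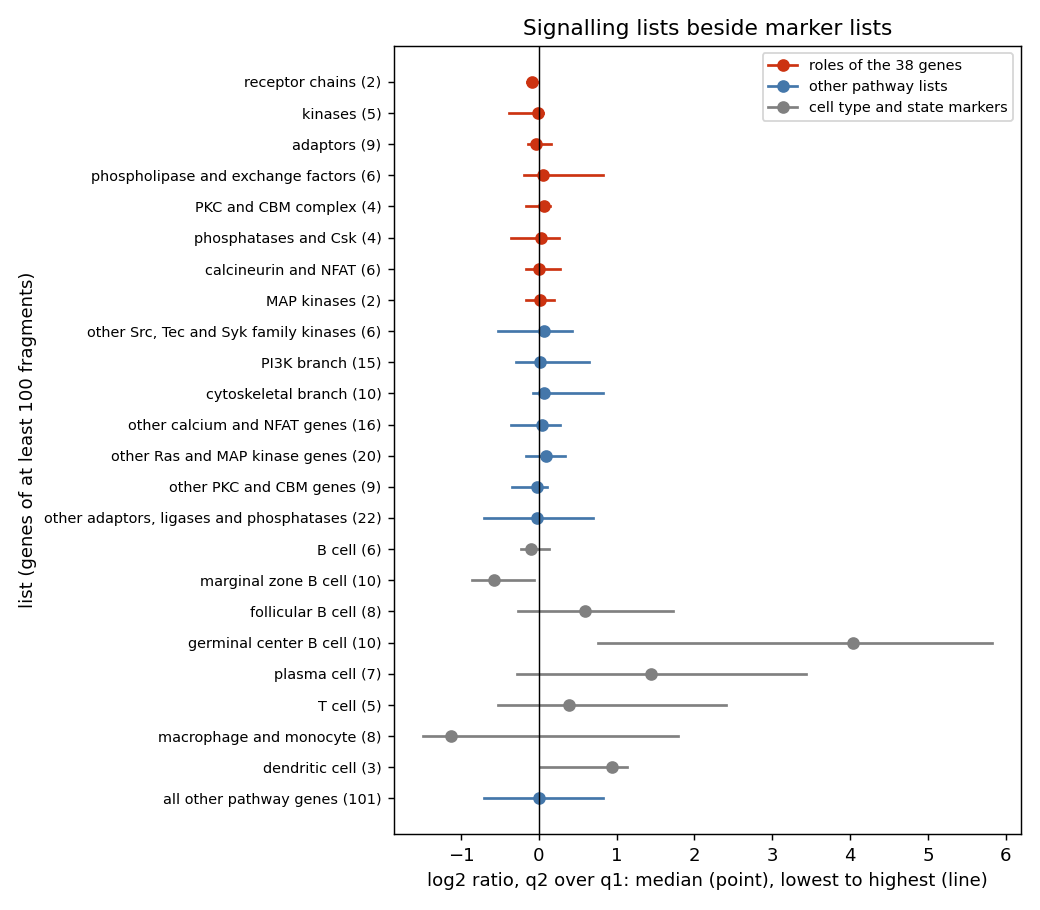
Median (point) and range (line) of the log2 ratio of q2 over q1 (x) for the roles of the 38 genes (red), 7 other pathway lists and their union (blue) and marker lists (grey), with the number of genes of at least 100 fragments in brackets (y). The red medians lie between -0.09 and 0.07, while the germinal center median is 4.03 and that of marginal zone genes -0.57.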

How the data were processed

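Total RNA was extracted with Trizol and made into Illumina TruSeq RNA libraries, per the labels' protocols. Per the submitters' processing notes, cutadapt 1.8.1, TopHat2 2.0.14, Cuffdiff 2.2.1 and the mm10 build were used; for annotation, scaling and filters, the sources used here give nothing. The table the authors deposited gives, per the file headers, Cuffdiff's estimated counts of fragments per gene and condition with their variance; the part from isoform assignment was 0 for every gene. The 38 genes, lists and size rules were chosen with earlier results of these data known, so no list was tested. The genes named are all 38 members and, per pathway list, those past 1.5-fold or else the largest ratio; others were chosen after their values were seen. Log2 ratios used a pseudocount of 1, which understates low genes, and a minimum of 100 fragments. Their SD is first-order from the deposited variances, which follow mainly the count, and whether they refer to 1 library is not stated. Positions and lengths are from GENCODE M21 (22694 symbols matched directly, 929 by synonym), windows from RefSeq GRCm38.p6. Calculations (Python 3.11.15, numpy 2.4.6, scipy 1.17.1) were tested on simulated data. Alternatives were pseudocounts of 0 and 10, minimums of 20 and 500, 2 scalings, other size rules and, as a correction, removal of a cubic trend in GC content, mean expression and length. Some genes of the lists enter counts and sums but are not reported here by name.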

Additional observations from a re-analysis of the deposited data

How the results depend on the processing

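No paired analysis was possible because each condition has 1 pooled value without replicate numbers, so no library was left out and no count test was run. The numbers of members past 1.5-fold (1 toward q2 and 0 toward q1) stayed at 1 and 0 under pseudocounts, minimums, scalings, the correction and, added after seeing the data, without the 6 members that overlap another gene. The 2-fold rule gave 0 toward q2, the lower planned fold rule (between 1.2-fold and 1.3-fold) 2 toward q1, the 1.2-fold rule, added later, 2 each way and the rule of 2 deposited SD 1 toward q1, by their own construction. The median ran from -0.014 to 0.020. Other minimums and leaving out members cannot change a gene's own ratio. Under the correction 16 of 38 single ratios moved beyond their 95% counting interval, and under the pseudocounts and scalings none did. In 6 cases the sign changed, none of them past 1.5-fold. The number of members beyond 1 deposited SD was 6, and 10 under the correction, 5 of them shared. Rasgrp3 stayed between 0.80 and 0.85, Blk between -0.38 and -0.30 and Ptpn22 between -0.39 and -0.34. Depth limits Vav3 and Mapk3 most.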
